A study of Homo sapiens with 8 samples.

Results

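H3K27me3 was measured by ChIP-seq in HAP1 cells that lack RING1A and RING1B and in wild-type HAP1 cells, with 2 libraries of each genotype. These 4 libraries, of the 8 in the series, were taken with all 34703 regions of the deposited table, none of which was left out for its values. HAP1 is a near-haploid human line derived from KBM-7, a chronic myeloid leukaemia line. Per the labels' protocols, the double knockout was made by editing RING1B with a Cas9 nickase in HAP1 cells that already lacked RING1A, and colonies grown from single sorted cells were screened for loss of RING1B protein. Wild-type HAP1 cells were the control and no cells were treated with a drug. The protocols call the libraries biological duplicates. No source used here gives the number of clones behind them. The p-values therefore reflect variation between cultures only. The loss of RING1A/B cannot be told apart from other differences between the edited cells and wild-type HAP1 cells. Cells that lacked RING1A alone, from which the double knockout was made, are not among the 8 libraries of the series.

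H3K27me3, trimethylated lysine 27 of histone H3, is written by Polycomb repressive complex 2 (PRC2), whose catalytic subunit is EZH2 or EZH1, and marks silenced developmental genes and broad silent domains. RING1A and RING1B are the catalytic subunits of Polycomb repressive complex 1 (PRC1) and place a single ubiquitin on histone H2A, the mark H2AK119ub. The complexes are known to be linked in both directions: CBX subunits of PRC1 bind H3K27me3, and the PRC2 cofactors JARID2 and AEBP2 bind H2AK119ub. The comparison asks what becomes of the mark of PRC2 once the ligases of PRC1 are gone.

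The values are normalized counts, and a density is the normalized count of a region divided by its width in kb. The regions cover 459.8 Mb of hg19 on the autosomes and X, with a median width of 6.0 kb. The H2AK119ub libraries of the same genotypes, which serve here as a check of the knockout, had totals of 1575661 and 1866278 in wild type and 17159 and 20938 in the double knockout. The H3K27me3 libraries of 1 genotype were closely correlated across regions. Pearson's r of log2 values was 0.957 for the wild-type pair and 0.967 for the knockout pair. Between genotypes r was 0.682 to 0.694. Such an r does not register a shift in level. Knockout 1 lay above its replicate by a median log2 difference of 0.251, against -0.032 for wild type 1. The knockout medians were 0.293, 0.253 and 0.245 in regions later called lower, not called and higher. On the deposited scale such an offset is part of the spread between libraries in the fit. Regions are not independent replicates. No source used here gives the authors' normalization method, so each difference in overall level rests on it. The labels and the written protocol name different H3K27me3 antibodies, and the sources used here do not settle which was used in HAP1.

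Without RING1A/B, H3K27me3 was distributed differently among the regions. Its total over them did not fall on the deposited scale, a level that rests on the unstated normalization. The summed H3K27me3 was 2393140 and 2456126 in wild type and 3788824 and 3224813 in the double knockout, so both knockout libraries lay above both wild-type ones. The ratio of means was 1.45, with 1.31 and 1.58 as the lowest and highest ratio of single libraries. With 2 libraries against 2 the exact two-sided permutation p of 0.33 is the smallest the design allows.

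Of 32209 regions with enough signal to be tested, 7338 (22.8%) were lower and 15228 (47.3%) were higher in the double knockout, and 9643 were not called (limma, Benjamini-Hochberg adjusted p under 0.05). A further 2494 regions, of median width 1.8 kb, were too low to test. Both knockout libraries lay above both wild-type libraries in 18087 tested regions (56.2%) and below both in 9009 (28.0%). The split between directions depended on scaling. Higher regions made up 67.5% of calls on the deposited scale, but 46.6% with TMM factors, 45.1% with median-of-ratios factors and 46.5% after scaling to the column totals. Each of these scalings moves the changes of all regions downward (the median by -0.52 with TMM), so lower calls could hardly be lost by them. Of the higher regions, 9163 (60.2%) were called higher under all of them. The calls also needed both wild-type libraries: without either one, 0 regions passed in either direction on the deposited scale, so no region named below kept its call. At an unadjusted p under 0.05 limma then gave 4870 lower and 10015 higher regions without wild type 1, and 4836 and 10266 without wild type 2. Without knockout 1 there were 4262 lower and 4467 higher regions, and without knockout 2 there were 4075 and 8148. With TMM factors, leaving out any 1 library gave 9442 to 10018 lower and 7015 to 8011 higher regions.

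The regions that fell lost most of their mark. Together they held 599158 and 606381 in wild type and 223261 and 182553 in the double knockout. Their density was 7.72 and 7.82 per kb in wild type, against 2.88 and 2.35 per kb in the knockout libraries. Since the classes were chosen on these libraries, their values are a description of the calls. The lower regions went from 25.04% and 24.69% of each wild-type total to 5.893% and 5.661% of each knockout total. For this fixed set the shares do not depend on a scaling of whole libraries. The set itself does, as it was called on the deposited scale, and a fall in its share follows from that choice. The regions that rose held 1240931 and 1284912 in wild type, against 2932670 and 2506662 in the knockout. Their density went from 4.18 and 4.33 to 9.88 and 8.44 per kb. Higher regions covered 296.9 Mb and lower ones 77.6 Mb, and the summed gain of 1456744.5 exceeded the summed loss of 399862.5 on the deposited scale. Regions that were not called had densities of 6.55 and 6.71 per kb in wild type, against 7.62 and 6.46 per kb in the knockout, so there the genotypes overlapped.

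**Figure D1:**
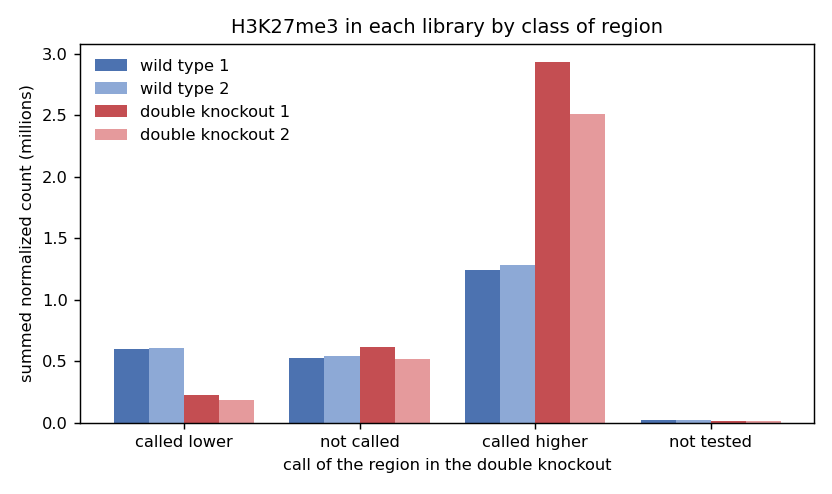
Summed H3K27me3 normalized count of each library over regions called lower, not called, called higher and not tested in the double knockout. Each bar is 1 library, and the classes were chosen on these libraries: in the lower class both knockout bars stand below both wild-type bars (223261 and 182553 against 599158 and 606381), and in the higher class they stand above them (2932670 and 2506662 against 1240931 and 1284912).

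On the deposited scale, losses were deep more often than gains were large. Of the lower regions, 950 kept under 10% of their wild-type mean, 2424 kept 10 to 25%, 2839 kept 25 to 50%, 1097 kept 50 to 75%, and 28 kept more than that. The 950 regions that kept least had a median wild-type H2AK119ub density of 5.98 per kb, and the classes that kept more had 4.89, 4.53, 4.75 and 4.92 per kb in turn, so the other 4 classes showed no steady order. Of the higher regions, 9711 stood between 2 and 4 times their wild-type mean, 4241 under 2 times, 1166 between 4 and 8 times and 110 beyond that. The regions that rose most had started lowest: median wild-type H3K27me3 was 4.59 per kb in those that rose less than 2-fold and 0.833 per kb in those that rose at least 8-fold, a ratio that shares the wild-type value with the fold itself. A minority of regions carried much of each change. The top 873 lower regions (11.9%) made up 50% of the loss, and the top 1325 higher regions (8.70%) made up 50% of the gain.

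Change in H3K27me3 ran against the level a region had in wild type. To keep noise in a wild-type library from entering both sides, regions were ranked in 10 bins by wild type 1 and compared with wild type 2. From the sparsest to the densest bin, density in wild type 2 went from 2.25 to 10.5 per kb. In knockout 1 the same bins were at 7.43 and 8.03 per kb, and in knockout 2 at 6.04 and 7.01 per kb. The knockout libraries thus differed far less between these bins than wild type did. The median log2 change of the sparsest bin was 1.67 in knockout 1 and 1.37 in knockout 2, and 94.9% of its tested regions were called higher. In the densest bin the median changes were -0.71 and -1.0, with 58.6% of tested regions called lower and 5.38% called higher. On the deposited scale medians went from positive to negative between bins 6 and 7. The calls use both wild-type libraries, the ranking one included, so these shares of called regions still hold noise shared with the ranking. The difference between the densest and the sparsest bin, averaged over both rankings and both knockout libraries, was -2.33. A factor for each library moves all bins alike and so leaves this difference as it is, but it moves the level of each bin. With TMM factors the median changes were 1.04 and 1.01 in the sparsest bin and -1.32 and -1.34 in the densest, and they changed sign between bins 5 and 6.

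**Figure D2:**
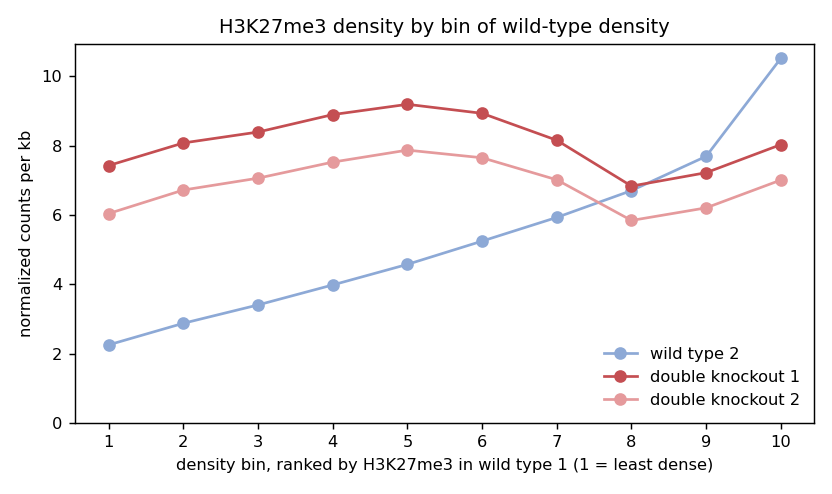
H3K27me3 density (normalized counts per kb) over 10 bins of regions ranked by wild type 1, in wild type 2 and each knockout library. Wild type 2 climbs from 2.25 to 10.5 per kb, while the knockout lines begin at 7.43 and 6.04 per kb and end at 8.03 and 7.01 per kb.

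How regions enter the table limits that reading. The larger of a region's mean wild-type and mean knockout density was 4.23 per kb at the 1st percentile and 7.22 per kb at the median, so almost no listed region was low in both genotypes. A region with little H3K27me3 in wild type was therefore nearly always one with more in the double knockout. The sources used here do not say how the regions were called, and the part of that step in the pattern was not tested.

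**Figure D3:**
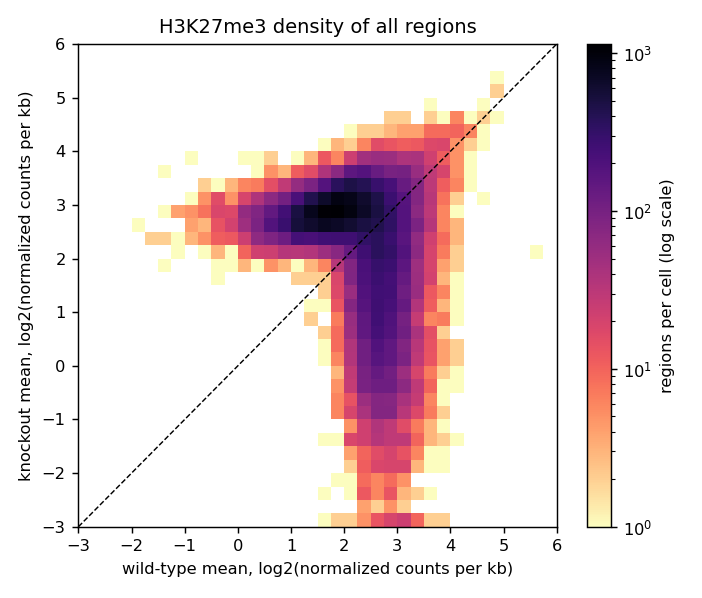
Number of regions by mean wild-type density (x axis) and mean knockout density (y axis), both as log2 of normalized counts per kb, with shade on a log scale and equality as a dashed line. Regions below the range are drawn in the lowest row. The regions form an arm of low wild-type density above the line and an arm of low knockout density below it, and the corner low in both genotypes is empty.

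The densest regions of wild type were not the densest of the double knockout. The densest 10% of regions by wild type 1 held 17.5% of the H3K27me3 in wild type 2, against 8.65% and 8.87% in the knockout libraries. Ranked by wild type 2, they held 18.5% in wild type 1, against 9.62% and 9.90% in the knockout libraries. The share was lower in both knockout libraries, and the exact permutation p of 0.33 was again the smallest possible. The wild-type libraries had 49.3% of these regions in common, while 15.0% and 14.9% of those of wild type 1 were among the densest 10% of knockout 1 and knockout 2. By count per region, which picks wide regions, the share did not fall: the knockout share was 1.03 times the wild-type share. In the other direction, the densest 10% of regions by knockout 1 had 11.3 per kb in knockout 2, and 5.93 and 6.23 per kb in the wild-type libraries.

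Density was slightly less even between regions in the double knockout, and count per region more clearly so. The Gini coefficient, which is 0 when all regions have equal density, was 0.281 and 0.283 in wild type and 0.299 and 0.318 in the double knockout. In regions of at least 5 kb it was 0.258 and 0.260 in wild type, against 0.258 and 0.273 in the knockout, and there the genotypes overlapped. For count per region it was 0.644 and 0.650 in wild type and 0.706 and 0.715 in the double knockout. Each exact permutation p was at or above the 0.33 that is the smallest possible.

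Among regions of similar wild-type H3K27me3, those with more wild-type H2AK119ub had a lower log2 change. Regions were put in 5 bins of wild-type H3K27me3 density and, within each, in 5 bins of wild-type H2AK119ub density. In the third H3K27me3 bin the median log2 change was 0.79 where H2AK119ub was least and -0.66 where it was highest. The same step in bin 4 was from 0.15 to -1.16. The difference between the highest and lowest H2AK119ub bins was -0.44, -0.53, -1.46, -1.31 and -0.58 for H3K27me3 bins 1 to 5, each averaged over 4 pairings of a wild-type with a knockout library. It was negative in every pairing, with a range from -1.55 to -1.35 in bin 3. In bin 5 the lowest median change, -1.12, was in the fourth H2AK119ub bin and not in the top one, at -1.05. A lower change was not always a lower end level: in H3K27me3 bin 5 the knockout densities were 6.88 and 5.75 per kb where H2AK119ub was least and 7.37 and 6.53 per kb where it was highest. The H3K27me3 level was matched only roughly, since it also rose with H2AK119ub within a bin, from 4.31 to 5.57 per kb in bin 3 and from 6.81 to 11.1 per kb in bin 5. In regions of at least 5 kb the 5 differences were -0.24, -0.26, -0.84, -1.23 and -0.76. Across the calls, median wild-type H2AK119ub density was 4.83 per kb in lower, 3.57 per kb in uncalled and 2.60 per kb in higher regions.

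**Figure D4:**
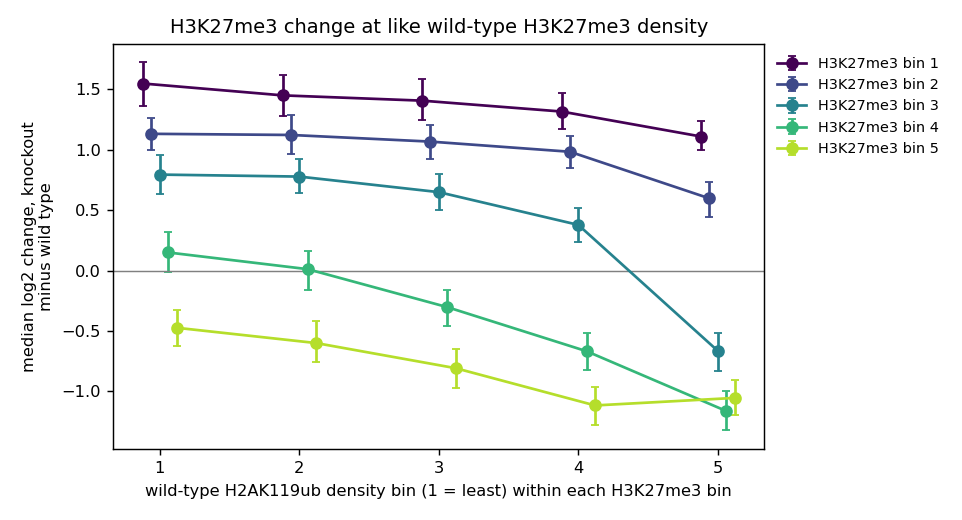
Median log2 change in H3K27me3 (knockout minus wild type) against the bin of wild-type H2AK119ub density, with 1 line for each of 5 bins of wild-type H3K27me3 density. Points are means over 4 pairings of a wild-type with a knockout library and bars run from the lowest to the highest pairing. Each line ends lower than it starts, with the widest span in bin 3, from 0.79 to -0.66.

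Wide regions had higher changes than narrow ones, and clustered regions were called higher more often than isolated ones. Within the 5 bins of wild-type H3K27me3 density, the widest regions had a higher median log2 change than the narrowest, by 0.26, 0.54, 1.11, 1.01 and 0.47. In bin 5 the widest regions still had a negative median change of -0.41. The match in wild-type density was again rough: from the narrowest to the widest regions it went from 3.58 to 2.57 per kb in bin 1, from 6.03 to 4.72 per kb in bin 3 and from 6.76 to 9.33 per kb in bin 5. Higher regions had a median width of 9.7 kb and lower regions of 5.8 kb. Regions whose nearest neighbour lay at a median of 5.6 kb had a median log2 change of 0.73, with 55.9% of tested regions higher and 19.3% lower. The most isolated regions, with a median gap of 46.8 kb, had a median change of -0.10, with 32.5% higher and 33.2% lower. Width moved with isolation, from a median of 9.0 kb to 3.6 kb, and so did median wild-type H3K27me3 density, from 4.71 to 5.48 per kb. The part of each in this was not tested. The sources used here do not say which libraries set the bounds of a region. Width and gap may thus themselves depend on the knockout signal, and this was not tested either. No listed gap was under 5.0 kb, and the most clustered regions had gaps of 5.0 to 6.2 kb.

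Direction was shared along the chromosome. When neighbouring regions were both called, they changed in the same direction in 95.8% of pairs up to 10 kb apart and in 91.1% of pairs 10 to 50 kb apart. The share was 78.7% at 50 to 200 kb and 66.3% beyond 200 kb. Among all pairs of called regions, whatever their distance, 56.1% had the same direction. Regions are called separately from a continuous signal, so close neighbours may be pieces of 1 domain.

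Summed over windows of 1 Mb, 649 of 2659 tested windows (24.4%) were lower and 1333 (50.1%) were higher in the double knockout by limma. Windows held a median of 13.0 regions, and 1500 windows (56.4%) held at least 1 region called lower and 1 called higher. Windows called higher still held 1646 lower regions, and 582 of them (43.7%) held none. Median wild-type H2AK119ub per covered kb was 4.64 in lower and 2.89 in higher windows. With TMM factors the windows split into 1284 lower and 983 higher. Without wild type 1 the counts on the deposited scale were 431 and 706, and without wild type 2 there were 752 higher windows.

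The deepest falls of whole windows were on chromosomes 15, 1 and 13. In the window from 66000001 to 67000000 on chromosome 15, H3K27me3 was 7060 and 7248 in wild type and 1102 and 796 in the double knockout. All 8 of its regions were called lower, and its log2 change was -2.93 ± 0.16 (SE, n = 2 against 2, limma adjusted p = 8.58e-74). That SE and p rest on a spread shared by windows and not on the replicates of this window alone. The window from 93000001 to 94000000 on chromosome 1 went from 1858 and 1851 to 340 and 280, with 7 of 9 regions lower and none higher. The window from 100000001 to 101000000 on chromosome 13 went from 2384 and 2452 to 540 and 440, with 14 of 21 regions lower and none higher.

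Rises of whole windows were of both a many-region and a single-domain kind. On chromosome 6, the window from 55000001 to 56000000 had 292 and 275 in wild type and 1706 and 1309 in the double knockout, and all 28 regions in it were higher. On the X chromosome, the window from 22000001 to 23000000 went from 700 and 664 to 2934 and 2437, with 22 of 22 regions higher. Chromosome 22 from 48000001 to 49000000 went from 2138 and 2315 to 11495 and 9978, which came from 3 higher regions that cover most of it. Those 3 regions, the last of which ended at 48867600, were followed by 4 lower regions between 48883201 and 48973800. The nearest of the 4, chr22:48883201-48892200, had values of 68 and 70 in wild type, against 11 and 3 in the double knockout.

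Among single regions, the largest fall in count was on chromosome 15, at chr15:66222201-66582600, a domain of 360.4 kb. It held 6214 and 6404 in wild type and 829 and 604 in the double knockout, which left 11.4% of its mark. Its log2 change was -3.15 ± 0.15 (SE, n = 2 against 2, limma adjusted p = 5.91e-37). It was dense in both marks in wild type, with H3K27me3 at 17.2 and 17.8 per kb and H2AK119ub at a mean of 14.8 per kb. HAP1 is known to carry an extra copy of a part of chromosome 15, the chromosome with the highest wild-type density over its regions, at 6.75 and 6.90 per kb. Copy number was not measured here, and its part in the level of this region was not tested.

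The next falls were also of broad domains. At chr17:46240401-46609600, 369.2 kb wide, H3K27me3 went from 4033 and 4030 to 800 and 640, a log2 change of -2.49 ± 0.14. The region chr1:166853001-167056600 went from 2886 and 2953 to 633 and 513, and chr11:61244601-61379800 from 2064 and 2303 to 520 and 483. Each kept under 25% of its wild-type mean. At chr15:63615201-63707600 the values were 1515 and 1510 against 312 and 249. By contrast chr1:175423401-175680000, 256.6 kb wide, went from 2733 and 2754 to 1615 and 1355 and kept 54.1%. All 6 were chosen with no overlap between genotypes.

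The largest rise in count was at chr22:48055201-48671000, a domain of 615.8 kb that was sparse in wild type. It had 1577 and 1691 in wild type and 8797 and 7544 in the double knockout, a 5.00-fold difference of means with a log2 change of 2.32 ± 0.15 (SE, n = 2 against 2, limma adjusted p = 1.21e-27). Its density went from 2.56 and 2.75 to 14.3 and 12.3 per kb, and its wild-type H2AK119ub was 1.75 per kb. The other 5 regions with the largest rises began at 4.55 to 9.80 per kb in the wild-type libraries and reached 12.0 to 24.4 per kb in the knockout libraries.

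Of these, chr17:77088801-77462400 was the densest after the rise, with 3421 and 3660 in wild type, against 9134 and 8444 in the knockout. The region chr12:2249001-2790800, 541.8 kb wide, went from 2532 and 2753 to 8300 and 7320. On chromosome 22, chr22:26181001-26824000 is the widest region of the table at 643.0 kb, and went from 3493 and 3725 to 8947 and 7708. The rises, too, were chosen with no overlap between genotypes. The region chr22:49388401-49804000 went from 2398 and 2674 to 7550 and 6818, and chr20:56297401-56750200 from 2062 and 2291 to 6981 and 6057. Among the 3 widest higher regions was also chr1:18089001-18646000, which went from 2852 and 3108 to 7612 and 6962. All 7 began below the 6 named falls in density: their highest wild-type value was 9.80 per kb, and the lowest wild-type value of the falls was 10.7 per kb. The choice itself favours this difference, since a fall in count cannot exceed the wild-type count.

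Some dense domains lay at a like level in both genotypes on the deposited scale. The one with the most H3K27me3, chr20:61599801-61815400, had 3041 and 3202 in wild type and 3352 and 2941 in the double knockout, with a log2 change of 0.01 ± 0.14 (SE, n = 2 against 2, limma adjusted p = 0.957). At chr17:43720601-43887000 the values were 1886 and 1879 against 1970 and 1813, and at chr2:219781601-219930200 they were 1560 and 1732 against 1766 and 1660. The other 3 of the 6, on chromosomes 20, 14 and 15, had log2 changes of 0.19, -0.05 and -0.16. In that on chromosome 20, chr20:61922201-62056600, both knockout libraries lay above both wild-type ones, at 1758 and 1640 against 1377 and 1598. An adjusted p above the threshold does not show equal levels. With TMM, median-of-ratios or column-total scaling each of these 6 regions was called lower, because those scalings shift the median of all tested regions by about -0.52 (TMM). Their H2AK119ub density in wild type was 4.63 to 9.92 per kb, which overlaps the 6.18 to 16.3 per kb of the 6 largest falls.

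**Figure D5:**
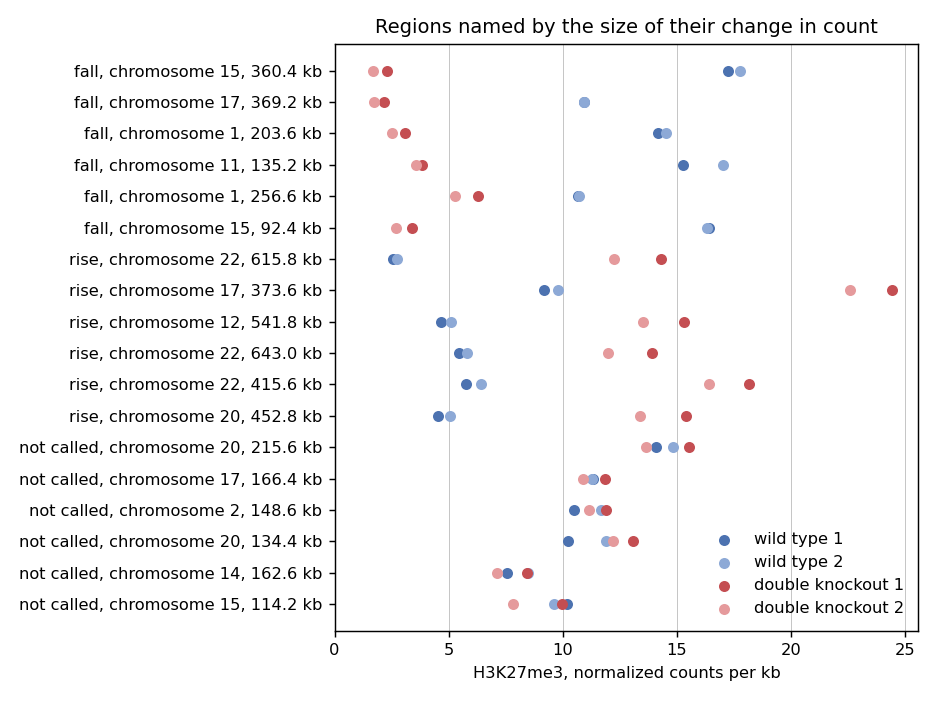
H3K27me3 density (normalized counts per kb) in each of the 4 libraries for the 6 largest falls and the 6 largest rises in count and for 6 regions that were not called, labelled by chromosome and width. By the choice of regions, red knockout points lie left of blue wild-type points in all falls and right of them in all rises. They intermix with them in most of the 6 regions that were not called.

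By density, the 3 largest falls among regions of at least 5 kb included the domain on chromosome 15 with the largest fall in count, and otherwise differed from those by count. The largest fall was at chr1:156368201-156424600, with 24.9 and 25.2 per kb in wild type and 9.26 and 7.66 per kb in the double knockout. A narrower region, chr11:20177001-20187400, was left nearly empty, with 181 and 183 in wild type, against 9 and 10 in the knockout, or 5.22% of its wild-type mean. Of the rises, chr4:7458601-7537800 went from 7.15 and 7.71 to 22.2 and 21.0 per kb, and chr14:106341201-106347600 from 4.53 and 5.47 to 22.5 and 18.8 per kb. The largest rise by density, chr6:58773801-58779400, was exceptional in all libraries, at 69.6 and 57.5 per kb in wild type, against 92.7 and 80.2 per kb in the knockout, with wild-type H2AK119ub at 90.6 per kb. Its log2 change of 0.44 ± 0.16 (limma adjusted p = 0.00917) turned to -0.09 with TMM factors. Over all regions the wild-type medians were 4.89 per kb for H3K27me3 and 3.22 per kb for H2AK119ub. How uniquely reads map to this region was not tested.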

How the data were processed

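Per the submitters' processing notes, Bowtie2, SAMtools, Picard, bedtools and deepTools were used with hg19, with no versions. The file the authors deposited gives a score per region and library, a normalized count in whole numbers. The normalization, the calling of regions and the depth are not given in the sources used here, and the total normalized count stands in for depth. The labels' protocol states a fly spike-in for another line only. The authors' deposited log2 fold changes and unadjusted p-values were used only for the comparison under the processing alternatives. A further 14 columns of logs, means and other statistics were not used. Positions are 1-based.

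Values were fitted as log2(normalized count + 1) with limma 3.58.1 in R 4.3.3, using a mean-variance trend, and adjusted over all tested regions. Regions needed a count of 10 in at least 2 libraries and a sum of 15. Fold changes on this scale understate those of low regions. limma's prior carried 107 degrees of freedom in the fit of regions, so the small adjusted p-values rest on a spread shared by regions. In the fit of windows the prior was infinite, so their standard errors and p-values rest wholly on a spread shared by windows. The fit was tested on simulated data with few changed regions and no shift between libraries, so that test does not cover the shifts seen here. TMM and median-of-ratios factors were computed on the tested regions with all 4 libraries. Where 1 library was left out, the tested set and any TMM factors were still those from all 4. With TMM factors the prior of the region fit was infinite without either knockout library, so those calls rest wholly on a shared spread. Its degrees of freedom were 12.9 without either wild-type library.

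Named regions are, among called regions with no overlap between genotypes, the 6 largest falls and 6 largest rises in count, the 3 widest in each direction, and the 3 largest changes in density in each direction among regions of at least 5 kb. Of the regions not called, the 6 with the highest wild-type mean and a log2 change between -0.2 and 0.2 were named. Windows named are the 3 largest falls and rises among called windows with a mean above the median. The region chr22:48883201-48892200 was chosen after its values were seen. Members, bins and rules were chosen with earlier results of these data known. No gene annotation of hg19 was used, which leaves regions without gene names and gene lists not applied.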

Additional observations from a re-analysis of the deposited data

How the results depend on the processing

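Counts of called regions depended on the scaling and on single libraries. Higher regions numbered 9548 with TMM, 9163 with median-of-ratios and 9516 with column-total scaling, and lower regions 11141 with median-of-ratios factors. The median log2 change was 0.575 as deposited and 0.0557, 0.0277 and 0.0539 under these scalings. A minimum count of 30 gave 4269 lower regions. Leaving out 1 library gave 0 to 4262 lower and 0 to 8148 higher regions on the deposited scale, with smallest adjusted p of 0.0836 and 0.0811 in limma without wild type 1 and 2, where its prior had 1.40 degrees of freedom. With TMM factors, an alternative added after the data were seen, it gave 9442 to 10018 lower and 7015 to 8011 higher regions (8011 and 7889 without wild type 1 and 2, 7015 and 7082 without knockout 1 and 2). Median changes were then 0.0436, 0.0467, 0.0454 and 0.0485. Lower windows numbered 1284, 1317 and 1277 under the 3 scalings. Windows of 500 kb gave 1295 lower and 2298 higher, and windows of 5 Mb gave 69 and 348. Leaving out 1 library gave 431 to 820 lower and 706 to 1564 higher windows, and with TMM factors 1213, 1228, 1248 and 1251 lower windows without wild type 1, wild type 2, knockout 1 and knockout 2. The lone library left in a genotype was assumed to vary like the other genotype. The knockout share of the densest regions was 0.514 of that in wild type for the densest 10%, 0.482 and 0.557 for a smaller and a larger top share (5% and 20%), and 1.03 ranked by count. The Gini difference was 0.0258 for density, 0.0636 for count and 0.00679 in regions of at least 5 kb. The H2AK119ub difference averaged over H3K27me3 bins was -0.86, and -0.67 in regions of at least 5 kb. The region chr6:58773801-58779400 reversed to -0.0874, -0.116 and -0.0892 under TMM, median-of-ratios and column totals, and to -0.237, -0.0606 and -0.114 with TMM factors without wild type 2, knockout 1 and knockout 2. The scalings differ by construction in the level they set equal. Other causes were not tested.

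The replicate numbers share no stated pairing, and their deviations had a correlation of 0.0226 between genotypes. A fit with the replicate number as a block gave 7279 lower and 15015 higher regions, and 607 lower and 1192 higher windows. The authors' deposited table has 4360 regions (12.6%) with a log2 fold change below -1 and 7306 (21.1%) above 1 at p under 0.05. Of these, 4221 and 7269 were also called here in the same direction and 0 in the opposite one. The deposited statistics are of the same comparison in the same data, so the match is no independent check.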

Other observations

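Chromosomes differed in their balance of loss and gain on the deposited scale. The ratio of mean H3K27me3 in the double knockout to that in wild type was lowest on chromosome 1, at 1.17, where density was 6.25 and 6.41 per kb in wild type and 7.99 and 6.82 per kb in the knockout. It was highest on chromosome 20, at 1.86, where density went from 5.01 and 5.21 to 10.2 and 8.80 per kb, with 60.1% of tested regions higher and 11.7% lower. Chromosome 22 had both, with 35.0% of tested regions higher and 33.6% lower, but the gain in its higher regions came to 94.4% of its wild-type count and the loss in its lower ones to 10.5%. On the X chromosome the gain came to 90.02% and the loss to 14.98%. On chromosome 13 the loss was 27.1% and the gain 53.5%. Copy number of the chromosomes was not measured here.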
